A study of Homo sapiens with 6 samples.

Results

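RPE-1 cells collected early after release under ATR inhibition (4h_ATRi) were set against cells that had reached G2 with ATR active (6h_DMSO), to ask in which genes the early inhibited cells matched normal G2 cells and in which they differed. RPE-1 is an established human line, derived from retinal pigment epithelium and made immortal by telomerase. The comparison used 6 of the 17 libraries analysed, 3 of 4h_ATRi and 3 of 6h_DMSO, chosen by their column names and paired by the letter of the experiment (A, B or C). Cells of all these groups had first been held at the start of S phase with 2 mM thymidine for 24 h and then washed. The 4h_ATRi cells carried the ATR inhibitor AZ20 at 2 µM from 1 h after the wash and were collected at 4 h, after 3 h of inhibitor. The 6h_DMSO cells carried the solvent from 1 h after the wash and were collected at 6 h, after 5 h of solvent. The design text places that time in G2. The groups therefore differed in inhibitor, in release time and in hours of treatment together, and these cannot be told apart within the comparison. Another group of 3 libraries, 4h_DMSO (solvent for 3 h, collected at 4 h, late S phase), is given beside them. It differs from 4h_ATRi in the inhibitor alone, and from 6h_DMSO in release time and with it in hours of solvent.

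ATR is the kinase that senses stalled replication forks and, through CHK1, holds back CDK1, the cyclin-dependent kinase that drives entry into mitosis. Transcripts for mitosis build up through late S phase and G2. Their promoters are held silent earlier in the cycle by the DREAM complex and are switched on by B-MYB, FOXM1 and the MuvB core. These factors act through a promoter element called the cell cycle homology region, often beside CCAAT boxes bound by NF-Y.

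The promoters of 3 mitotic genes with matching levels (TOP2A, MKI67 and CDC20) and of 2 genes that stood apart (UBALD2 and INSIG1) are shown first, as examples of both outcomes on which the text gives values in every library. The match of CDC20 and the call of INSIG1 were each lost under 12 alternatives, of 16 for CDC20 and of 14 for INSIG1. Each window holds 300 bases around the start of the gene, most of them upstream, 5′ to 3′ on the strand of the gene, from RefSeq on GRCh38.p14. Capitals mark TTTGAA, the core of the cell cycle homology region, and CCAAT, each searched on both strands, so that TTCAAA and ATTGG are the reverse matches. In MKI67 a TTTGAA overlaps an ATTGG. The windows are chr17:40417847-40418146 (minus strand) for TOP2A, chr10:128126374-128126673 (minus strand) for MKI67, chr1:43358731-43359030 (plus strand) for CDC20, chr17:76265098-76265397 (plus strand) for UBALD2 and chr7:155297628-155297927 (plus strand) for INSIG1.
TOP2A: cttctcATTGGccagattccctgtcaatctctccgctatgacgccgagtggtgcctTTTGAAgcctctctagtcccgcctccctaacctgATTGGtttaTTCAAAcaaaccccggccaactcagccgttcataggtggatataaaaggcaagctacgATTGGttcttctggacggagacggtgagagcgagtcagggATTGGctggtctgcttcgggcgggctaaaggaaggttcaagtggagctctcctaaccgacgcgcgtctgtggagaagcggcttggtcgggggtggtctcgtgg
MKI67: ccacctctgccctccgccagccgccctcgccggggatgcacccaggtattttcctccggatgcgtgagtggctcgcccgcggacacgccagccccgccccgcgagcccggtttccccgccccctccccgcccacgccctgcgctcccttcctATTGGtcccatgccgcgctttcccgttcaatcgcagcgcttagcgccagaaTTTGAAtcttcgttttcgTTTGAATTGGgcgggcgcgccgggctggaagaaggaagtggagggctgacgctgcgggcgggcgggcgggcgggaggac
CDC20: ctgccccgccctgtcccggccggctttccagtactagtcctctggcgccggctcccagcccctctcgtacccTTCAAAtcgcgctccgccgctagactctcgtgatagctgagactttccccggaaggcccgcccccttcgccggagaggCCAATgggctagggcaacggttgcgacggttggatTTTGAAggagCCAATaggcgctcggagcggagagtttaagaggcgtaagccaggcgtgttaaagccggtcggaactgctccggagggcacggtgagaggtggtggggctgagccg
UBALD2: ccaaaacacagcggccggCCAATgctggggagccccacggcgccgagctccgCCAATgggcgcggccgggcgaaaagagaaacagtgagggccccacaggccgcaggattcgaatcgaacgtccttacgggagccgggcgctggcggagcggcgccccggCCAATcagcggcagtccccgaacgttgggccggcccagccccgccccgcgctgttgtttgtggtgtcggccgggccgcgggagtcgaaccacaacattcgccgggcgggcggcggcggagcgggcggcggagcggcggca
INSIG1: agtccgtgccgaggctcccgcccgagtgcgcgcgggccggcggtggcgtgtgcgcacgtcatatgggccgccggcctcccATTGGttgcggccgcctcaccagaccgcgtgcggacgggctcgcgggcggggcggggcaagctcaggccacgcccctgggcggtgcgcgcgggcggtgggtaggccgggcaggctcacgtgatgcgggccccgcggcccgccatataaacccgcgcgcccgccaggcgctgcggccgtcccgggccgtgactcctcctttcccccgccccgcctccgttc
The windows of TOP2A, MKI67 and CDC20 each hold 2 matches to TTTGAA, and those of UBALD2 and INSIG1 hold 0. CCAAT has 4 matches in TOP2A, 2 in MKI67, 2 in CDC20, 3 in UBALD2 and 1 in INSIG1. Over the promoter windows of the 123 genes of the G2 and mitosis lists that have one, 72 (58.5%) hold TTTGAA and 87 (70.7%) hold CCAAT. Over all 27305 genes with a window, 18.2% hold TTTGAA and 39.7% hold CCAAT. A match is a description of the letters in the window and not a bound site.

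Levels are given in CPM, the count of a feature scaled to the size of its library. Library totals ran from 1784999 to 2282302 counts over the 6 libraries compared, so 1 CPM is about 2 counts. Of the retinal pigment epithelium markers, RPE65 and DCT had no counts in any of the 6 libraries and 5 of 11 passed the filter on low counts. Those 5 were BEST1 (21849 to 33505 counts in each library), PMEL (523 to 779), SERPINF1 (22 to 51), MITF (5 to 18) and TYRP1 (4 to 11). Of the 5, 2 have no overlap on the other strand. In the 4h_ATRi libraries the 5 summed to 11850 to 15650 CPM, and the kept features opposite to the listed markers to 125 to 161 CPM. Whether the counts on BEST1 or the other markers were RNA of these genes was not tested. RLBP1, TYR, OTX2 and TTR had at most 9 counts in a library. The keratin and mesenchymal markers KRT8, KRT18, VIM and FN1 had 413 counts or more in every library, while COL1A2 had none. Between these lay THY1 (59 to 83 counts), ACTA2 (30 to 93) and COL1A1 (19 to 103). Of the 9 markers of other cell types, EPCAM, CD3E, ALB and HBB had no counts, CDH1, PTPRC and RBFOX3 had at most 4 in a library, and PECAM1 is not analysed here. SOX10, a neural crest marker overlapped on the other strand, passed the filter with 1 to 23 counts in each library, and its part in the results was not tested. Counts lay mostly on the strand opposite to abundant genes: where a coding gene overlapped a non-coding feature, the non-coding one held more counts in 1392 of 1786 pairs (77.9%). A feature whose exon is overlapped on the other strand is therefore named below with its partner as "opposite" to it. Which of the pair its counts came from is uncertain. The markers above are named without their partners, and the same uncertainty holds for those with an overlap. For a feature without a partner, the strand of its counts is not known either. Its CPM is then a level of counts on that feature, and whether it tracks the transcript was not tested.

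Of 13510 features kept, 109 were higher in 4h_ATRi (0.807%) and 104 were lower (0.77%), 213 in all (1.58%), at an adjusted p under 0.05 in edgeR's quasi-likelihood test with the experiment as a block. A further test asked whether the groups were alike: a feature was called matched where both a 1.5-fold rise and a 1.5-fold fall were rejected, again at an adjusted p under 0.05. By that test 2442 features matched (18.1%), of which 7 were also called different, and 10862 (80.4%) were neither and are called undecided. The share of matches was higher at higher counts. A match was reached by 1967 of 2523 features with a mean of at least 100 counts (78.0%), against 475 of 10987 below it (4.32%). The 3 and 3 libraries did not overlap for 1510 features (11.2%). Without experiment A the higher and lower calls numbered 20 and 6, without C 59 and 54, and without the pairing 8 and 5. Leaving out a single library gave fewest calls without 4h_ATRi A (42 higher, 28 lower) and without 6h_DMSO A (56 and 38). It left 65 higher without 6h_DMSO C, and 43, 48 and 61 lower without 4h_ATRi C, 6h_DMSO B and 6h_DMSO C. The matches numbered 1141 without experiment A, 1600 without B, 1575 without C and 0 without the pairing. In the authors' deposited table of this comparison, 21 genes were higher and 15 lower at its adjusted p under 0.05, and all 36 were called here with the same sign.

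**Figure D1:**
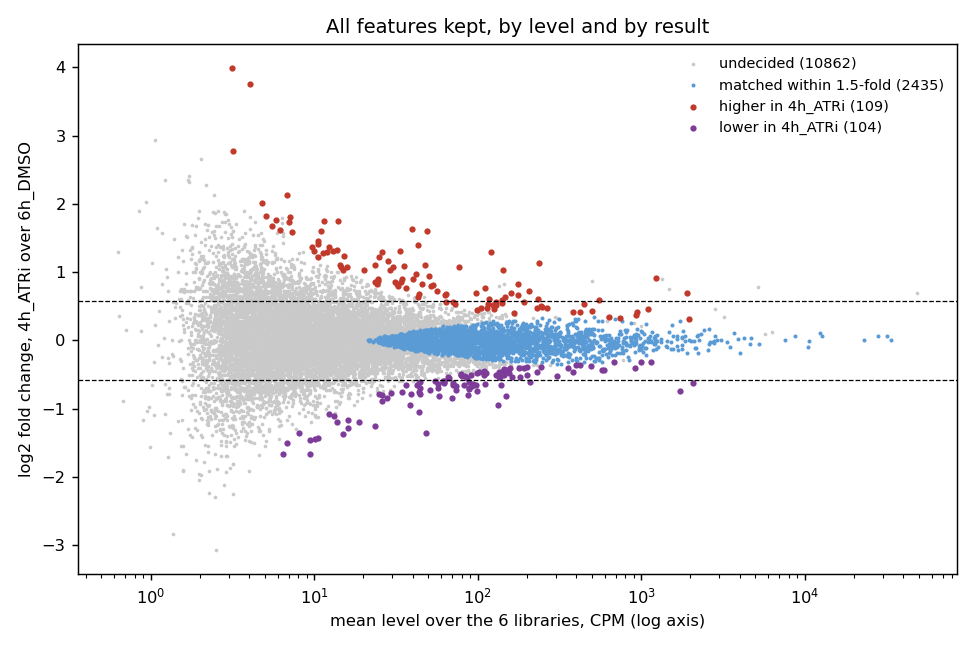
Each point is 1 of the 13510 features kept, with its mean level over the 6 libraries in CPM (log axis) against its log2 fold change, 4h_ATRi over 6h_DMSO. Dashed lines mark a 1.5-fold change in either direction; the 109 higher and 104 lower features are in red and purple, the matched features in blue crowd around 0 at high levels, and the 10862 undecided features in grey spread widest at low levels.

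Genes for G2 and mitosis were called and matched at about the share of all features. Over 6 lists of such genes (CDK1 control, G2 transcription factors, kinetochore and checkpoint, spindle and kinesins, anaphase-promoting complex, condensation and cytokinesis), 129 of 140 genes passed the filter, 1 was higher, 1 was lower, 23 matched and 104 were undecided. Over all features 1.58% were called, and 18.1% matched against 17.8% of these genes, so neither count sets the lists apart. Of the 21 listed genes with at least 100 counts 14 matched, beside 78.0% of all features at that depth. At an unadjusted p under 0.05 edgeR's test picked 19 of the 129, beside 1412 of the 13510 features. Their median log2 fold change was 0.14, beside 0.01 over all features. The same 129 genes had a median of 0.58 in 4h_ATRi over 4h_DMSO, where 35 were called higher (background 1.2%), and of 0.44 in 6h_DMSO over 4h_DMSO, where 17 were called higher (background 0.651%). These comparisons share libraries, so their values are given side by side and not compared. Over all features, 141 were called in 6h_DMSO over 4h_DMSO (1.04%), and in 6h_ATRi (inhibited cells collected at 6 h, 2 libraries) over 4h_ATRi 110 were higher (0.814%) and 57 lower (0.422%). Of the 63 features opposite to these genes, 39 matched, 1 was higher and none was lower, with a median of 0.06. These features were often at high counts: of the 42 with at least 100 counts 37 matched, beside 78.0% of all features at that depth. In bulk RNA, a smaller share of cells in a phase and less RNA per cell cannot be told apart.

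TOP2A, the topoisomerase that untangles sister chromatids, had 124, 101 and 88.3 CPM in 4h_ATRi (experiments A, B and C), 120, 88.9 and 101 CPM in 6h_DMSO, and 61.4, 61.9 and 57.6 CPM in 4h_DMSO. The libraries of 4h_ATRi and 6h_DMSO overlapped, and all 6 lay above the 3 of 4h_DMSO. The log2 fold change of TOP2A over 6h_DMSO was 0.02 ± 0.14 (SE; 95% interval -0.26 to 0.29), with an adjusted p of the match of 0.000535, while 4h_ATRi exceeded 4h_DMSO by 0.79 ± 0.15 (adjusted p = 6.48e-05). MKI67, which codes for the Ki-67 protein that coats mitotic chromosomes, had 449, 529 and 463 CPM in 4h_ATRi, 444, 442 and 416 CPM in 6h_DMSO, and 318, 327 and 317 CPM in 4h_DMSO. All 3 pairs of MKI67 were higher in 4h_ATRi, by a log2 fold change of 0.14 ± 0.10 that lay within the margin (adjusted p of the match 0.000124). Both matches were lost without the pairing, at 0.0676 for TOP2A and 0.0706 for MKI67, and held under every other alternative run at this margin.

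CDC20, the activator of the anaphase-promoting complex, had 32.4, 47.4 and 27.5 CPM in 4h_ATRi, 30.3, 44.7 and 28.5 CPM in 6h_DMSO, and 12.5, 23.8 and 21.2 CPM in 4h_DMSO. Experiment B was highest in each condition. Its log2 fold change was 0.05 ± 0.21, with an adjusted p of the match of 0.0359. CDC25B, the phosphatase that starts CDK1 activation, averaged 28.9 ± 17.1 CPM in 4h_ATRi, 28.2 ± 7.38 CPM in 6h_DMSO and 13.4 ± 2.56 CPM in 4h_DMSO (SD, n = 3 each), with an interval of -0.47 to 0.46 on the log2 scale and an adjusted p of the match of 0.042. TPX2, which brings Aurora A to the spindle, averaged 68.0 ± 6.38 CPM in 4h_ATRi, 61.6 ± 13.1 CPM in 6h_DMSO and 35.0 ± 4.22 CPM in 4h_DMSO, with a log2 fold change of 0.15 ± 0.16 and an adjusted p of the match of 0.0282. At these levels the matches were fragile: CDC20 and CDC25B each lost theirs under 12 of 16 alternatives and TPX2 under 7 of 16. Leaving out 4h_ATRi C raised the adjusted p of the match to 0.166 for CDC20, 0.295 for CDC25B and 0.229 for TPX2. Leaving out 4h_ATRi B raised that of CDC25B to 0.457.

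Of 26 genes for chromosome condensation and cytokinesis 10 matched (38.5%), and of 36 spindle and kinesin genes 5 did (13.9%), beside 18.1% of all features. Of the 7 condensation and cytokinesis genes with at least 100 counts 6 matched, beside 78.0% of all features at that depth. INCENP of the spindle list, the scaffold of the chromosomal passenger complex, had 66.6, 83.5 and 68.8 CPM in 4h_ATRi, 77.4, 69.3 and 64.7 CPM in 6h_DMSO, and 43.9, 37.2 and 41.8 CPM in 4h_DMSO (log2 fold change 0.05 ± 0.16; adjusted p of the match 0.00388, and 0.0633 without 6h_DMSO A). The libraries of 4h_ATRi and 6h_DMSO were interleaved. The condensin subunits NCAPD2 (opposite MRPL51), NCAPG (opposite LCORL) and SMC4 (opposite IFT80 and TRIM59) had log2 fold changes of 0.25, 0.04 and 0.15. The cytokinesis genes ANLN (opposite MATCAP2), RACGAP1 (opposite AQP6) and KIF23 (opposite KIF23-AS1) had 0.08, -0.03 and -0.02. Each of these 6 matched, and each match was lost on leaving out at least 1 library, with adjusted p of the match up to 0.411 (NCAPG without experiment A). PRC1-AS1, opposite to the spindle midzone gene PRC1, averaged 932 ± 81.5 CPM in 4h_ATRi, 886 ± 145 CPM in 6h_DMSO and 674 ± 129 CPM in 4h_DMSO, and its match (adjusted p 2.64e-06) was lost only without the pairing (0.0678).

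Some matched features were called against 4h_DMSO. AC008870.3, opposite to the mitotic kinase gene PLK1, had 632, 610 and 471 CPM in 4h_ATRi, 719, 471 and 475 CPM in 6h_DMSO, and 277, 185 and 175 CPM in 4h_DMSO. The first 6 values all exceed the last 3. Its log2 fold change was 0.06 ± 0.10 over 6h_DMSO (adjusted p of the match 2.79e-05) and 1.45 ± 0.11 over 4h_DMSO (adjusted p = 4.37e-20). ERN2, another feature opposite to PLK1, had 84.8, 81.7 and 56.5 CPM in 4h_ATRi, 97.9, 84.9 and 58.6 CPM in 6h_DMSO, and 27.0, 25.3 and 25.6 CPM in 4h_DMSO, and also matched (0.0161; 0.21 without 6h_DMSO C). PLK1 itself, at 30.5, 38.3 and 25.6 CPM in 4h_ATRi, 24.7, 17.1 and 20.8 CPM in 6h_DMSO, and 10.5, 12.9 and 9.35 CPM in 4h_DMSO, was undecided: its groups did not overlap, but the log2 fold change of 0.59 ± 0.24 had an adjusted p of 0.293.

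CLCC1, opposite to the spindle orientation gene GPSM2, averaged 421 ± 81.9 CPM in 4h_ATRi, 424 ± 63.2 CPM in 6h_DMSO and 172 ± 39.3 CPM in 4h_DMSO (log2 fold change -0.01 ± 0.10; adjusted p of the match 3.29e-06). GPSM2 itself was near 257 ± 23.3 CPM in 4h_ATRi, 252 ± 14.5 CPM in 6h_DMSO and 284 ± 45.4 CPM in 4h_DMSO, and matched as well. SAPCD2, another spindle orientation gene, has AL807752.3 and AL807752.2 opposite to it, with log2 fold changes of 0.01 ± 0.12 and 0.11 ± 0.16 over 6h_DMSO and of 1.35 and 1.18 over 4h_DMSO. Both features matched, while SAPCD2 itself was undecided at -0.61 ± 0.30. EXOSC9, opposite to the cyclin A gene CCNA2, averaged 466 ± 56.2 CPM in 4h_ATRi, 441 ± 128 CPM in 6h_DMSO and 311 ± 120 CPM in 4h_DMSO and matched (0.000263). CCNA2 itself averaged 105 ± 11.6, 106 ± 12.8 and 118 ± 20.4 CPM in the same order of conditions and matched (0.000257). The match of EXOSC9 was lost without experiment A (0.0888) and that of AL807752.2 without 4h_ATRi C (0.119) or 6h_DMSO A (0.221).

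AL138789.1 (opposite DEPDC1), DIS3 (opposite PIBF1 and BORA, the gene of an activator of PLK1) and AC106820.5 (opposite CCNF, the gene of cyclin F) matched at 0.10 ± 0.11, 0.24 ± 0.11 and 0.28 ± 0.10 on the log2 scale, and each was called higher than 4h_DMSO, by 1.23 for AL138789.1 and 1.10 for AC106820.5. AC005339.1, opposite to TNFAIP8L1, exceeded 4h_DMSO by 1.90 ± 0.17 (adjusted p = 1.99e-17), with 106 ± 28.1 CPM in 4h_ATRi, 101 ± 31.4 CPM in 6h_DMSO and 28.1 ± 0.947 CPM in 4h_DMSO. BORA and CCNF themselves were undecided, at -0.51 ± 0.23 and 0.10 ± 0.25, as was DEPDC1 at 0.01 ± 0.32. Leaving out single libraries ended the matches of DIS3 (up to 0.15, without 4h_ATRi C), AC106820.5 (up to 0.14, without 4h_ATRi C) and AC005339.1 (0.0864 without 4h_ATRi C, 0.169 without 6h_DMSO A). That of AL138789.1 ended without experiment A (0.0732). All of these matches were lost without the pairing.

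**Figure D2:**
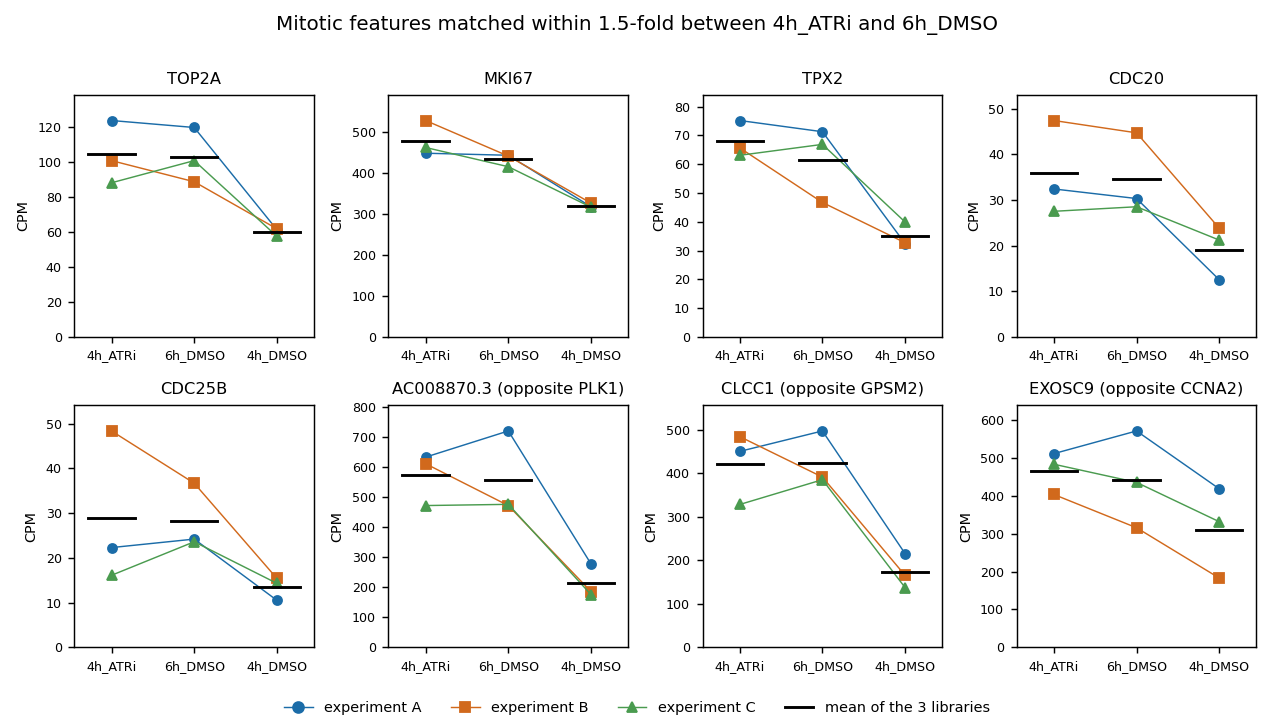
Level in CPM of 8 mitotic features in each library of 4h_ATRi, 6h_DMSO and 4h_DMSO, with lines joining the libraries of an experiment and a bar at the mean of the 3 libraries. The 4h_ATRi and 6h_DMSO means lie close together in each panel and above the 4h_DMSO mean, for AC008870.3 at 571 and 555 CPM against 212 CPM.

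CDCA3 and GNB3 overlap on opposite strands, and the counts on these features went different ways. Which gene of the pair the counts on either feature came from was not tested. The lower call given below is therefore of counts on the CDCA3 feature, and may not concern CDCA3 RNA. GNB3 had 196, 228 and 150 CPM in 4h_ATRi and 202, 155 and 179 CPM in 6h_DMSO, against 102, 74.3 and 73.8 CPM in 4h_DMSO, and matched (log2 fold change 0.11 ± 0.13; adjusted p of the match 0.00219, and 0.0977 without 4h_ATRi C). CDCA3, a trigger of mitotic entry, had 51.5, 90.3 and 51.3 CPM in 4h_ATRi, 88.1, 117 and 128 CPM in 6h_DMSO, and 64.9, 81.7 and 63.0 CPM in 4h_DMSO. It was lower in 4h_ATRi in all 3 pairs, by -0.80 ± 0.15 (adjusted p = 0.000201). It was the only gene of the mitosis lists called lower, and the call was lost without experiment C (0.126), without A (0.0516) and without the pairing (0.245).

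Of the features opposite to the mitotic genes, 1 was called higher. BRD8, opposite to the mitotic kinesin gene KIF20A, had 25.1, 19.2 and 19.9 CPM in 4h_ATRi, 10.3, 12.6 and 7.67 CPM in 6h_DMSO, and 7.49, 8.42 and 8.86 CPM in 4h_DMSO (1.07 ± 0.30; adjusted p = 0.0332). That call was lost under 10 of 15 alternatives, for example at 0.414 without 4h_ATRi A and 0.26 without 6h_DMSO C. KIF20A itself was undecided at 0.43 ± 0.22.

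Other genes of the mitosis panel were neither called nor matched. CENPF, a kinetochore protein, had 143, 128 and 131 CPM in 4h_ATRi, 113, 90.4 and 97.0 CPM in 6h_DMSO, and 63.4, 72.3 and 72.4 CPM in 4h_DMSO. Its groups did not overlap, but the log2 fold change of 0.41 ± 0.13 had an adjusted p of 0.0993. WEE1, the kinase that restrains CDK1, averaged 24.3 ± 0.976 CPM in 4h_ATRi, 16.3 ± 2.90 CPM in 6h_DMSO and 8.76 ± 1.61 CPM in 4h_DMSO, at 0.58 ± 0.26 (adjusted p = 0.37). The kinesin genes KIF14 and CENPE had log2 fold changes of 0.80 ± 0.30 (adjusted p = 0.208) and 0.37 ± 0.22 (0.589), and ARL6IP1 had 0.86 ± 0.29 (0.142). For each of WEE1, KIF14, CENPE and ARL6IP1 all 3 pairs were higher in 4h_ATRi. CCNB1 and CCNB2 (cyclins B), CDK1, AURKA, AURKB, BUB1, UBE2C, CDC25C (opposite FAM53C) and PKMYT1 (opposite PAQR4 and KREMEN2) had log2 fold changes from -0.39 (PKMYT1) to 0.48 (UBE2C), with adjusted p of 0.438 or more. Of the transcription factors, FOXM1 (opposite ITFG2) had 0.16 ± 0.18 and MYBL2 0.06 ± 0.30, both undecided.

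Genes of DNA replication gave no call, where 1.58% of all features were called. Over lists for licensing, E2F targets and the replication fork, 47 of 60 genes passed the filter, none was higher or lower, 3 matched (6.38%, beside 18.1% of all features) and 44 were undecided. Only 4 of the 47 had at least 100 counts, and 2 of those matched, beside 78.0% of all features at that depth. At an unadjusted p under 0.05 edgeR's test picked 3 of the 47, and DESeq2 called 0. Their median log2 fold change was 0.01 over 6h_DMSO, -0.30 in 4h_ATRi over 4h_DMSO and -0.26 in 6h_DMSO over 4h_DMSO. RFC5, a clamp loader subunit (opposite WSB2), averaged 381 ± 50.1 CPM in 4h_ATRi, 405 ± 62.5 CPM in 6h_DMSO and 380 ± 110 CPM in 4h_DMSO and matched (2.16e-05). The maintenance methyltransferase DNMT1 (0.08 ± 0.16) and its partner UHRF1 (-0.05 ± 0.20) matched at 0.00915 and 0.0316, and lost the match without 4h_ATRi B (0.117 for DNMT1) and under 12 of 16 alternatives for UHRF1. AL354864.1, opposite to CLSPN, the gene of the ATR adaptor claspin, had 82.1, 82.6 and 80.7 CPM in 4h_ATRi and 92.3, 105 and 86.0 CPM in 6h_DMSO, against 165, 136 and 125 CPM in 4h_DMSO. Its groups were apart yet within the margin (log2 fold change -0.21 ± 0.14; adjusted p of the match 0.0221). Of the panel genes, MCM2 (opposite TPRA1), E2F1 and RRM2 were undecided at -0.17, 0.22 and 0.11. The cyclin E gene CCNE2 (opposite INTS8 and AC087752.4) was undecided at -0.60 (adjusted p 0.0815, groups apart). CDC6 had 10 counts over the 3 libraries of 4h_ATRi and 2 over those of 6h_DMSO, a ratio of 4.59 with a 95% counting interval of 0.978 to 43.1.

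VIL1, which lies opposite to USP37, was the exception among features opposite to replication genes. USP37 is a deubiquitinase that stabilises cyclin A. VIL1 had 109, 101 and 131 CPM in 4h_ATRi, 89.5, 79.9 and 80.5 CPM in 6h_DMSO, and 179, 139 and 154 CPM in 4h_DMSO. The early inhibited libraries lay between the other 2 groups without overlap. The log2 fold change was 0.44 ± 0.13 over 6h_DMSO (adjusted p = 0.0411) and -0.46 ± 0.12 over 4h_DMSO (adjusted p = 0.0151). The call against 6h_DMSO was lost under 11 of 15 alternatives, on leaving out any single library with adjusted p from 0.0547 (without 4h_ATRi B) to 0.392 (without 4h_ATRi C).

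Certain features were called higher in 4h_ATRi than in either DMSO condition, and how many did so in all was not counted. PPIL2, a cyclophilin-family gene opposite to YPEL1, had 84.8, 87.1 and 49.4 CPM in 4h_ATRi, 20.5, 27.6 and 23.6 CPM in 6h_DMSO, and 21.0, 27.7 and 17.7 CPM in 4h_DMSO. The DMSO groups overlapped each other and no 4h_ATRi library came near them. The log2 fold change was 1.61 ± 0.19 over 6h_DMSO (adjusted p = 3.54e-11) and 1.73 ± 0.19 over 4h_DMSO (adjusted p = 6.35e-13). The authors' deposited table gives 1.40 for PPIL2 over 6h_DMSO. YPEL1 on the other strand matched, at 99.9, 79.8 and 90.2 CPM in 4h_ATRi and 84.4, 85.9 and 92.6 CPM in 6h_DMSO (0.000872; 0.0676 without the pairing).

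CEP44, a centrosome protein gene opposite to FBXO8, had 69.3, 56.6 and 54.1 CPM in 4h_ATRi, 22.4, 16.6 and 19.2 CPM in 6h_DMSO, and 26.0, 14.4 and 22.6 CPM in 4h_DMSO. Again the DMSO groups overlapped and the inhibited libraries stood above both, by 1.63 ± 0.22 (adjusted p = 6.02e-09) and 1.52 ± 0.21 (2.97e-08). CEP44 had 32.5 and 23.7 CPM in the 2 libraries of 6h_ATRi, where PPIL2 had 78.4 and 91.6 CPM. UBALD2, a gene with no overlapping partner, had 66.6, 68.4 and 61.2 CPM in 4h_ATRi, 30.8, 29.6 and 31.2 CPM in 6h_DMSO, and 15.5, 24.8 and 23.1 CPM in 4h_DMSO. The 3 groups of UBALD2 did not overlap. Its log2 fold change was 1.10 ± 0.19 over 6h_DMSO (adjusted p = 4.27e-05) and 1.63 ± 0.20 over 4h_DMSO (1.54e-10). The calls of PPIL2, CEP44 and UBALD2 over 6h_DMSO held under every alternative run.

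INSIG1, which retains the sterol sensor in the endoplasmic reticulum, had 15.5, 16.4 and 9.97 CPM in 4h_ATRi, 6.06, 4.52 and 5.48 CPM in 6h_DMSO, and 2.50, 0.991 and 1.97 CPM in 4h_DMSO. The 3 groups were apart, but at few counts: the log2 fold change of 1.37 ± 0.39 (adjusted p = 0.0368) was lost on leaving out any 1 library (0.0626 to 0.247). PDE7B-AS1 (opposite PDE7B) averaged 21.6 ± 5.62 CPM in 4h_ATRi, 6.35 ± 0.556 CPM in 6h_DMSO and 10.2 ± 2.28 CPM in 4h_DMSO, and its log2 fold change of 1.75 ± 0.32 (adjusted p = 6.02e-05) held under every alternative run. HCP5, a long non-coding RNA gene (opposite AL645933.1), had 39 counts over the 3 libraries of 4h_ATRi and 2 over those of 6h_DMSO, a ratio of 17.9 with a 95% counting interval of 4.64 to 153. The pseudogene SNRPGP15 (1.32 ± 0.32) and SCRG1 (1.28 ± 0.37) completed the higher features chosen this way. The calls of HCP5, SNRPGP15 and SCRG1 were lost under 5 of 13, 8 of 16 and 12 of 14 alternatives. On leaving out single libraries they were lost at up to 0.0597 for HCP5 (6h_DMSO A), 0.0788 for SNRPGP15 (4h_ATRi C) and 0.326 for SCRG1 (6h_DMSO B).

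On the lower side, AC093484.4 and the zinc finger gene ZNF787 were below both DMSO conditions. AC093484.4 averaged 5.72 ± 2.27 CPM in 4h_ATRi, 15.4 ± 4.05 CPM in 6h_DMSO and 16.7 ± 6.73 CPM in 4h_DMSO (log2 fold change over 6h_DMSO -1.43 ± 0.34). ZNF787 averaged 7.88 ± 2.48 CPM in 4h_ATRi, 16.7 ± 5.87 CPM in 6h_DMSO and 16.7 ± 0.921 CPM in 4h_DMSO (-1.08 ± 0.31). The calls were lost under 6 of 16 alternatives for AC093484.4 (0.125 without 6h_DMSO A) and 13 of 16 for ZNF787 (0.404 without 6h_DMSO A).

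Other features, called between the DMSO times, had 4h_ATRi on the 4h_DMSO side. HOOK2, opposite to JUNB, had 181, 130 and 206 CPM in 4h_ATRi, 66.6, 60.3 and 84.4 CPM in 6h_DMSO, and 126, 110 and 151 CPM in 4h_DMSO. JUNB is an AP-1 subunit of the immediate early response. All 4h_ATRi values of HOOK2 exceeded all 6h_DMSO values and overlapped those of 4h_DMSO, with log2 fold changes of 1.29 ± 0.14 over 6h_DMSO (adjusted p = 4.67e-13) and 0.41 ± 0.13 over 4h_DMSO (0.0767). JUNB itself, at 16.7 ± 5.56 CPM in 4h_ATRi, 5.43 ± 1.46 CPM in 6h_DMSO and 12.4 ± 1.45 CPM in 4h_DMSO, was higher by 1.61 ± 0.36 over 6h_DMSO (adjusted p = 0.00229; 0.0878 without 4h_ATRi C). MSC-AS1, opposite to TRPA1 and to the repressor gene MSC, had 67.5, 55.2 and 65.5 CPM in 4h_ATRi, 22.4, 24.1 and 24.7 CPM in 6h_DMSO, and averaged 57.2 ± 12.7 CPM in 4h_DMSO. The 6 libraries collected at 4 h stood together above those of 6h_DMSO (1.40 ± 0.20; adjusted p = 4.36e-08). The calls of HOOK2 and MSC-AS1 held under every alternative run.

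NR4A1AS, opposite to the nuclear receptor gene NR4A1, had 55.6, 33.8 and 55.1 CPM in 4h_ATRi, 23.3, 17.6 and 26.8 CPM in 6h_DMSO, and 55.9, 30.2 and 62.5 CPM in 4h_DMSO (1.09 ± 0.21 over 6h_DMSO; adjusted p = 0.000182; 0.108 without experiment A). LIF, a cytokine gene opposite to LIF-AS1 and LIF-AS2, averaged 39.1 ± 10.1 CPM in 4h_ATRi, 19.2 ± 4.30 CPM in 6h_DMSO and 37.5 ± 9.85 CPM in 4h_DMSO (1.03 ± 0.23; adjusted p = 0.00301; up to 0.109 without 1 library, 4h_ATRi A). RBMS1, which binds single-stranded nucleic acids, had 26.4, 62.0 and 30.9 CPM in 4h_ATRi and 18.2, 15.1 and 17.0 CPM in 6h_DMSO (1.16 ± 0.23; adjusted p = 0.000438; 0.195 without 6h_DMSO B). BMF-AS1, opposite to the pro-apoptotic gene BMF, ran from 15.5 to 37.4 CPM in 4h_ATRi, and averaged 13.1 ± 3.71 CPM in 6h_DMSO and 35.7 ± 4.11 CPM in 4h_DMSO (1.03 ± 0.25; adjusted p = 0.00562; up to 0.0928 without 4h_ATRi A). The groups of BMF-AS1 overlapped, and those of NR4A1AS, LIF and RBMS1 did not. NDUFA4L2, opposite to SHMT2, and the mitochondrial tRNA gene MT-TD did likewise at few counts: NDUFA4L2 ran from 7.59 to 15.5 CPM in 4h_ATRi, and averaged 2.55 ± 1.07 CPM in 6h_DMSO and 9.08 ± 5.87 CPM in 4h_DMSO (adjusted p = 0.00122; 0.0647 without 6h_DMSO B). MT-TD had 49 counts over 4h_ATRi and 3 over 6h_DMSO, with a 95% counting interval of their ratio of 4.84 to 75.2 (adjusted p = 0.000883; 0.0671 without 4h_ATRi A). SNRK, a kinase gene opposite to SNRK-AS1, lay on the lower side, at 9.25 ± 2.75 CPM in 4h_ATRi, 22.9 ± 9.57 CPM in 6h_DMSO and 9.25 ± 3.64 CPM in 4h_DMSO (-1.28 ± 0.29; adjusted p = 0.00256; 0.171 without 6h_DMSO B).

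**Figure D3:**
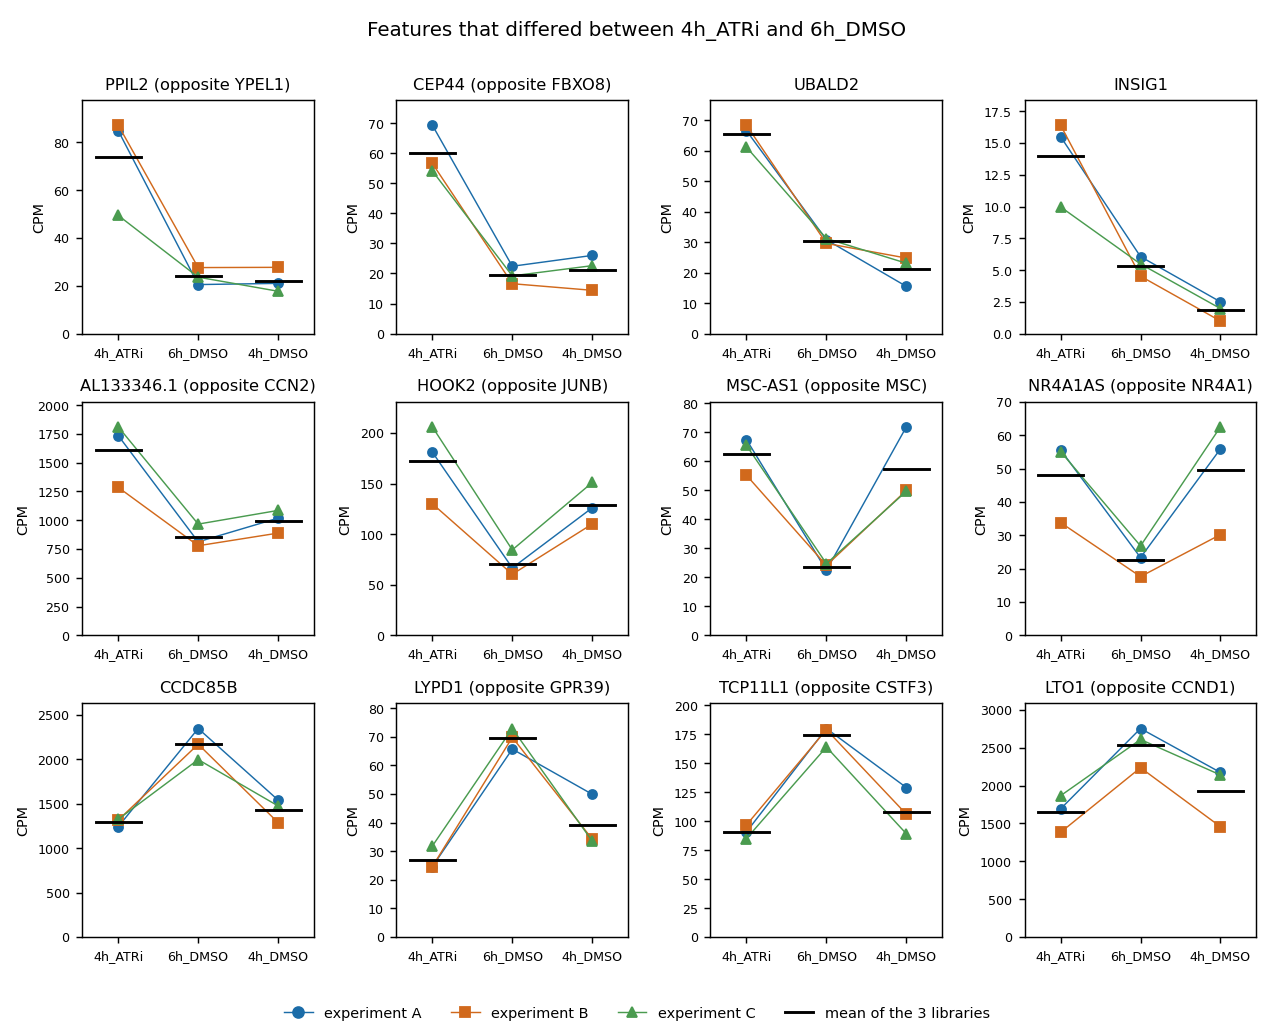
Level in CPM of 12 features that differed between 4h_ATRi and 6h_DMSO, in each library of 4h_ATRi, 6h_DMSO and 4h_DMSO, with lines joining the libraries of an experiment and a bar at the mean. PPIL2, CEP44, UBALD2, INSIG1 and AL133346.1 stand above both DMSO groups, HOOK2, MSC-AS1 and NR4A1AS form a V with 6h_DMSO lowest, and the bottom row peaks in 6h_DMSO.

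Of the features lower in 4h_ATRi, LYPD1, CCDC85B, TCP11L1 and LTO1 had 4h_DMSO means nearer to 4h_ATRi than to 6h_DMSO. Others had 4h_DMSO nearer to 6h_DMSO. NEB averaged 11.4 CPM in 4h_ATRi, 26.1 CPM in 6h_DMSO and 21.3 CPM in 4h_DMSO, and ILRUN 3.54, 10.1 and 8.74 CPM. How many of the lower features went each way was not counted. LYPD1, opposite to the zinc receptor gene GPR39, had 24.6, 24.6 and 31.8 CPM in 4h_ATRi, 65.7, 69.8 and 72.9 CPM in 6h_DMSO, and 49.9, 34.2 and 33.5 CPM in 4h_DMSO. No 4h_ATRi library reached any DMSO library of either time (log2 fold change over 6h_DMSO -1.36 ± 0.18; adjusted p = 2.63e-09). The difference from 4h_DMSO, -0.54 ± 0.19, did not pass (adjusted p = 0.149). CCDC85B, a coiled-coil protein gene with no partner, had 1242, 1316 and 1325 CPM in 4h_ATRi, 2347, 2170 and 1997 CPM in 6h_DMSO, and 1541, 1287 and 1475 CPM in 4h_DMSO (-0.74 ± 0.08 over 6h_DMSO; adjusted p = 6.60e-12). TCP11L1, opposite to the polyadenylation factor gene CSTF3, averaged 90.8 ± 5.87 CPM in 4h_ATRi, 174 ± 8.97 CPM in 6h_DMSO and 108 ± 20.2 CPM in 4h_DMSO (-0.94 ± 0.12; adjusted p = 6.02e-09). LTO1, opposite to the cyclin D1 gene CCND1, had 1692, 1382 and 1866 CPM in 4h_ATRi, 2754, 2236 and 2609 CPM in 6h_DMSO, and 2173, 1456 and 2140 CPM in 4h_DMSO (-0.63 ± 0.08; adjusted p = 2.58e-09; 0.313 without the pairing). CCND1 itself was lower by -0.50 ± 0.12 (adjusted p = 0.00422; 0.234 without 4h_ATRi A, 0.158 without 6h_DMSO A). CCDC85B, TCP11L1, LTO1 and CCND1 were chosen after their values were seen. The calls of LYPD1, CCDC85B and TCP11L1 held under every alternative run that kept them.

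The other features with the largest fold changes were at low levels. On the higher side these were CARD19, NFATC2, STAC3, CYP1B1 (opposite RMDN2 and CYP1B1-AS1), SLC38A2-AS1, NKIRAS1 (opposite RPL15) and the kinetochore gene KNTC1. Their log2 fold changes ran from 1.62 (KNTC1) to 1.82 (CARD19) and their 4h_ATRi means from 8.05 (CARD19) to 17.8 CPM (CYP1B1). On the lower side these were SGPP2, LYG2, ILRUN (opposite ILRUN-AS1), MCPH1-AS1 (opposite MCPH1), NSD1 (opposite PRMT1P1), SEMA6A (opposite SEMA6A-AS1 and SEMA6A-AS2), NCOA5, POMZP3 (opposite AC004980.1) and NEB (opposite RIF1), from -1.66 (SGPP2) to -1.20 (NEB). CYP1B1 stood out in that only dropping the pairing ended its call (0.366). CYP1B1-AS1 on its other strand had 403, 319 and 252 CPM in 4h_ATRi, 147, 191 and 107 CPM in 6h_DMSO, and 198, 223 and 127 CPM in 4h_DMSO (1.14 ± 0.14; adjusted p = 1.55e-06; 0.169 without experiment C). CYP1B1-AS1, a name chosen after its values were seen, was higher in all 3 pairs. The calls of the other 15 each ended on leaving out at least 1 library or experiment, at adjusted p up to 0.76 (STAC3 without experiment A).

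Other gene lists gave few calls. Over all features 0.807% were higher, 0.77% lower and 18.1% matched. Called features had a median of 138 counts per library, beside 22.1 over all features kept. For these lists and the features opposite to them, the share called at like depth was not computed. In the immediate early list, 1 of 18 genes was higher (JUNB) and none lower, with a median log2 fold change of 0.17. Only 5 features lay opposite to its genes, and 4 of them had at least 100 counts. Of the 5, 4 were higher, beside 0.807% of all features, with a median of 0.69. The 4 were HOOK2, NR4A1AS, IER3-AS1 (opposite IER3) and AC024909.2 (opposite DUSP6). IER3-AS1 had 211, 158 and 224 CPM in 4h_ATRi, 124, 118 and 123 CPM in 6h_DMSO, and 192, 142 and 149 CPM in 4h_DMSO, without overlap between the first 2 groups (0.69 ± 0.12; adjusted p = 4.27e-05; 0.0516 without experiment A). AC024909.2 was higher by 0.55 ± 0.13 (adjusted p = 0.00531; 0.155 without 4h_ATRi A, 0.0989 without 6h_DMSO A, 0.0609 without 6h_DMSO C). In 6h_DMSO over 4h_DMSO the median of the 5 features was -0.40.

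In the list of ATF4 targets, the amino acid response, 0 of 19 genes were called and 4 matched, with a median of 0.29; 4 had an unadjusted p under 0.05 in edgeR's test, and DESeq2 called 0. Of 12 features opposite to the listed genes, 4 were higher and 4 matched, beside 0.807% and 18.1% of all features. Of the 9 with at least 100 counts 4 matched, beside 78.0% of all features at that depth. The median of the 12 was 0.34 over 6h_DMSO and -0.30 in 6h_DMSO over 4h_DMSO. The higher features were NDUFA4L2, MARS1 (opposite DDIT3), SLC7A11-AS1 (opposite the cystine transporter gene SLC7A11) and CEBPB-AS1 (opposite CEBPB). SLC7A11-AS1 had 267, 250 and 325 CPM in 4h_ATRi, 172, 192 and 188 CPM in 6h_DMSO, and 280, 218 and 271 CPM in 4h_DMSO (0.60 ± 0.11; adjusted p = 0.000234; 0.108 without experiment A). MARS1 was higher by 0.69 ± 0.14 (adjusted p = 0.000696; 0.0594 without 4h_ATRi A) and CEBPB-AS1 by 0.52 ± 0.13 (0.00759; 0.389 without 4h_ATRi A, 0.44 without 6h_DMSO A). For MARS1 and CEBPB-AS1 the 4h_ATRi library exceeded that of 6h_DMSO in all 3 experiments.

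Among sterol synthesis genes, 1 of 14 was higher (INSIG1) and none lower, with a median of 0.07. Of 13 features opposite to them 3 were higher, beside 0.807% of all features. Among the 3 were IDI2-AS1, opposite to the isoprenoid gene IDI1, and AC114947.2, opposite to the mevalonate pathway gene HMGCS1. IDI2-AS1 averaged 86.3 ± 12.2 CPM in 4h_ATRi and 59.2 ± 4.28 CPM in 6h_DMSO, without overlap (0.53 ± 0.15; adjusted p = 0.0368). AC114947.2 averaged 147 ± 43.7 CPM in 4h_ATRi and 104 ± 12.6 CPM in 6h_DMSO, with overlap (0.46 ± 0.13; adjusted p = 0.0402). Both calls ended on leaving out most single libraries, at up to 0.319 (IDI2-AS1) and 0.537 (AC114947.2), each without 6h_DMSO A. HMGCS1, with a log2 fold change of -0.08, and SQLE, with 0.22, were undecided.

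Of 22 YAP and TEAD targets, CCN2 was higher, 6 matched and none was lower, with a median of -0.11. CCN2, a secreted matricellular protein gene, had 183, 150 and 241 CPM in 4h_ATRi, 79.7, 89.9 and 111 CPM in 6h_DMSO, and 94.8, 141 and 128 CPM in 4h_DMSO (1.03 ± 0.16; adjusted p = 0.000116; 0.108 without experiment A). AL133346.1 on its other strand had 1735, 1285 and 1811 CPM in 4h_ATRi, 812, 778 and 966 CPM in 6h_DMSO, and 1018, 888 and 1085 CPM in 4h_DMSO (0.91 ± 0.09; adjusted p = 3.57e-12). Every 4h_ATRi library of the pair exceeded every DMSO library. Of the other targets, CCN1 and ANKRD1 matched, at -0.01 ± 0.15 and 0.19 ± 0.14; CCN1 lost its match without 4h_ATRi C (0.132) and ANKRD1 under 9 of 16 alternatives.

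Of 26 ribosome biogenesis genes none was called and 6 matched (median -0.09). Of 13 opposite features 2 were lower, beside 0.77% of all features. These were ARL10 (opposite NOP16; -0.65 ± 0.14; adjusted p = 0.00177; 0.158 without experiment A) and GLT8D1 (opposite GNL3; -0.61 ± 0.18; adjusted p = 0.043). GLT8D1 lost its call under 11 of 15 alternatives, at 0.297 without 6h_DMSO A. FOXO targets had a median of 0.61 over 11 genes, with none called and 1 matched. CCNG2, an atypical cyclin gene of that list, had 14.6, 4.56 and 10.4 CPM in 4h_ATRi, 2.33, 3.01 and 3.29 CPM in 6h_DMSO, and 2.00, 3.47 and 2.46 CPM in 4h_DMSO (adjusted p = 0.0782). Of 15 mitochondrially encoded genes 7 matched and MT-ATP8 was higher, with a median of 0.34. All 15 had at least 100 counts, a depth at which 78.0% of all features matched. MT-ATP8 had 271, 123 and 301 CPM in 4h_ATRi and 192, 87.9 and 186 CPM in 6h_DMSO. All 3 pairs were higher (0.56 ± 0.13, adjusted p = 0.00626). Leaving out 1 library raised that adjusted p to at most 0.134 (6h_DMSO C). Of 23 p53 targets 1, BBC3 (opposite MIR3190), was called, at 7.74 ± 2.71 CPM in 4h_ATRi and 1.85 ± 0.343 CPM in 6h_DMSO (adjusted p = 0.0204; 0.25 without 4h_ATRi C), and CDKN1A, the gene of the p21 inhibitor, was undecided at 0.13 ± 0.21. Of 17 homologous recombination and Fanconi genes, FANCL (opposite VRK2) was lower, at 111 ± 7.63 CPM in 4h_ATRi and 161 ± 16.2 CPM in 6h_DMSO (-0.53 ± 0.12; adjusted p = 0.00371; 0.123 without 4h_ATRi A). None of 18 ATR pathway genes and none of 15 nucleotide supply genes was called, and 2 of each matched. For lists with no call, edgeR's test gave an unadjusted p under 0.05 for 4 of the 18 ATR pathway genes, 1 of the 15 nucleotide supply genes, 3 of the 11 FOXO targets and 2 of the 26 ribosome biogenesis genes, and DESeq2 called 0 in each.

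**Figure D4:**
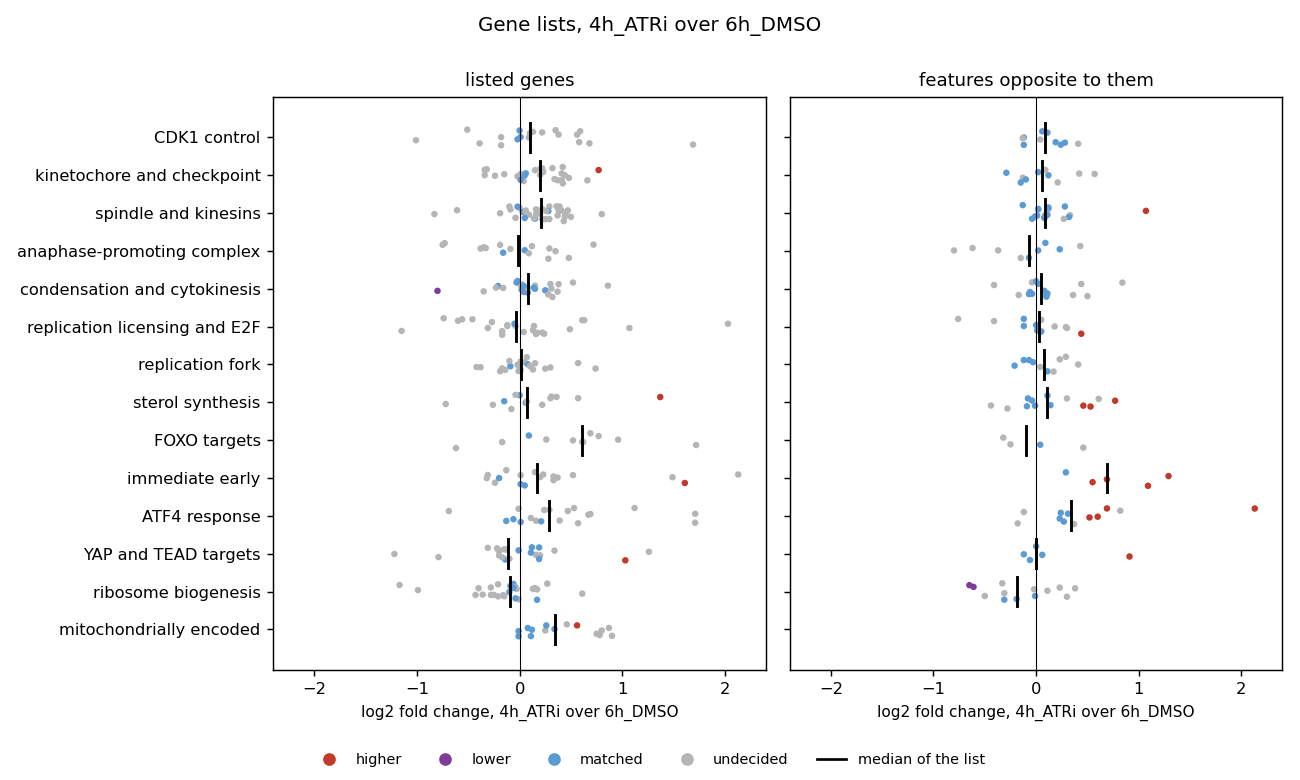
Log2 fold change, 4h_ATRi over 6h_DMSO, of each gene of 14 lists (left) and of each feature opposite to those genes (right), coloured by result, with a bar at the median of the list. The mitotic and replication lists centre near 0 with few red points, while the 5 opposite features of the immediate early list sit to the right with a median of 0.69.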

How the data were processed

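Total RNA of RPE-1 cells was made into libraries with a stranded mRNA kit (per the labels' protocols). What the authors deposited are whole-number read counts per gene, not normalised, in 17 columns of 3 independent experiments. The submitters' processing notes name TopHat, HTSeq, DESeq2 and the build GRCh37. The strand setting used for counting is not given in the sources used here. For each comparison the authors' deposited table also gives log2 fold changes and adjusted p-values, which entered no test. For 6h_ATRi, experiments A and B were analysed.

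Names came from a list of gene names and from a GENCODE annotation of GRCh38, and 55528 of 60252 IDs were matched to a name. Opposite-strand overlaps were computed from that annotation's exon coordinates on GRCh38, while the build named for the counts is GRCh37. Of the features kept, 7017 are overlapped on the opposite strand, 6277 are not and 216 are not annotated. Promoter sequences came from RefSeq.

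Features were kept by filterByExpr (minimum count 10, minimum total 15). All 17 libraries were fitted with edgeR 4.0.16 in R 4.3.3 (TMM, robust quasi-likelihood) with a mean per condition and the experiment letter as a block, adjusted by Benjamini-Hochberg over 13510 features. A match was 2 one-sided quasi-likelihood tests against a 1.5-fold change either way, taking the larger p. The letters paired the libraries: deviations from the group means correlated at 0.284, 0.536 and 0.237 for the same letter (A, B, C) and at -0.379 to 0.189 for different letters. The script was tested on simulated data. Means are ± SD (n = 3 libraries) and fold changes ± SE; intervals on counts cover counting error only.

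Named genes were a fixed panel, the 12 largest calls each way with at least 5 CPM and the same sign in all 3 pairs, and up to 10 each of matched features called against 4h_DMSO, features called the same way against both DMSO times, and features called between the DMSO times that left 4h_ATRi on the 4h_DMSO side. Called list members were added, and other list members and overlap partners were named after their values were seen. The comparison, lists and named genes were chosen with earlier results of these data known. Alternatives were other scaling, filters, margins, tools (DESeq2 1.42.0), samples and no block. Some called list members are not reported here.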

Additional observations from a re-analysis of the deposited data

How the results depend on the processing

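Of 1823 values of single features and list medians recomputed under alternatives, 0 reversed, 1426 stayed on their side of the threshold or within their error, 304 lost a call, 8 gained one and 85 moved. Without the replicate block (the pairing by experiment) the comparison gave 8 higher, 5 lower and 0 matched features, and the calls numbered 42 for 4h_ATRi over 4h_DMSO, 11 for 6h_DMSO over 4h_DMSO and 4 for 6h_ATRi over 4h_ATRi. With only the libraries compared there were 254 higher and 259 lower features, 306 calls between the DMSO times and 266 between the inhibited times. Restricted to features with no overlap on the opposite strand, the counts were 18 higher, 7 lower, 167 matched, and 40, 24 and 15 calls in the other comparisons. A 2-fold margin gave 7318 matches and a narrower one 2. Without single libraries the counts ran from 42 to 83 higher, 28 to 96 lower and 1648 to 1791 matched, and from 127 to 165, 68 to 120 and 35 to 193 in the other 3 comparisons. Without experiment A they were 20 higher, 6 lower, 1141 matched and 78, 32 and 11 calls, without B 1600 matched and 118 and 99 calls (4h_ATRi over 4h_DMSO and 6h_ATRi over 4h_ATRi), and without C 59 higher, 54 lower and 1575 matched. Of the 213 calls, 213 were kept with only the libraries compared, 212 with RLE size factors, 170 with DESeq2 and 13 without the block; 10 were kept in all 15 alternatives that do not restrict features by overlap, and none was called with the opposite sign. Undecided features had a median of 16.2 counts per library and matched features 218; whether depth sets the difference was not tested. Where a setting changed a result, the cause was not tested.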
